A study of Mus musculus with 23 samples.

Results

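The 9 genes described here are classical tumor suppressors and oncogenes of melanoma: the inhibitors Cdkn2a, Cdkn2b and Cdkn1a, the suppressors Trp53 and Rb1, the p53 antagonist Mdm2, and the oncogenes Braf, Kit and Myc. They were chosen by name from a table of 47643 genes, and each name matched 1 row. Expression was measured by RNA-seq in 23 libraries of B16F10, a mouse melanoma cell line of C57BL/6 origin, and is given as TPM, a unit scaled for transcript length and for the library. The 3 sample types had 6 libraries each: bulk tumors, tumor cells sorted from dissociated tumors with magnetic beads, and cultured cells. Within each sample type, 2 libraries each came from control cells, cells edited with the guide sg492 and cells edited with the guide sg495, both against Nr2f6, which encodes an orphan nuclear receptor. The edited cells were transfected with a Cy3-labeled guide RNA and Cas9 protein and sorted for Cy3; whether clones were derived afterwards is not stated. Tumors were grown subcutaneously in male C57BL/6 mice of 6 to 8 weeks. A further 2 libraries labelled IgG_Control and 3 labelled anti-PD1 carried the genotype WT, and their labels do not say whether they are bulk tumors or sorted cells. Nothing states that libraries of a group came from separate cultures or animals, so p-values measure the spread between these libraries only.

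Cdkn2a encodes 2 unrelated proteins from alternative first exons, p16INK4A, which inhibits the cyclin D kinases, and p19ARF, which restrains MDM2. MDM2 is a ubiquitin ligase that destroys p53, and p53 in turn switches on Cdkn1a, whose product p21 inhibits cyclin-dependent kinases, and Mdm2 itself. The kinases that p16INK4A, p15INK4B and p21 restrain act on RB1, which holds back genes of S phase. KIT is the receptor for stem cell factor on melanocytes and mast cells, BRAF relays its signal to MEK and ERK, and MYC is the transcription factor that raises ribosome production and growth. In human melanoma, loss of CDKN2A and activating mutation of BRAF are common.

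Nr2f6, the edited gene, was lower in both sg495 libraries than in both controls in all 3 sample types, at 15.8 to 17.2 TPM against 25.2 to 25.8 in bulk tumors, 10.6 to 12.2 against 17.7 to 20.3 in sorted cells and 18.6 to 22.4 against 31.9 to 32.9 in cultured cells. With sg492 it was at 22.3 and 23.3 TPM in bulk tumors and 26.6 and 31.5 in cultured cells, below both controls in each. The 2 sorted libraries labelled sg492 stood at 19.8 and 25.7 TPM, with the first between the 2 controls and the second above both, and sg492 values of sorted cells are therefore given as those of the libraries labelled sg492. The defining melanocyte genes were high in all 18 of these libraries: 12 markers summed to 16249 to 19039 TPM. Leukocyte markers summed to 469 to 1083 TPM in bulk tumors, 10.3 to 20.1 in sorted cells and 5.97 to 8.8 in cultured cells. In the 5 IgG and anti-PD1 libraries the proportions were turned around, with 1785 to 5482 TPM of melanocyte markers and 7268 to 12123 TPM of leukocyte markers. Between 11925 and 13899 genes per library had at least 1 TPM, and the read depth of a library is unknown from TPM.

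Both genes of the INK4 locus were listed at 0 TPM in every library of cultured cells and every library of sorted tumor cells, 12 of 12. They lie next to each other on chromosome 4 (GRCm38, minus strand), Cdkn2a at 89274471 to 89294653 and Cdkn2b at 89306299 to 89311039. RefSeq gives Cdkn2a a start for the p19ARF transcript and another for the p16INK4A transcript. The 200 bases before each start are shown because neither gene had any TPM in the sorted or cultured tumor cells. Capitals mark the GC box, GGGCGG on either strand.
Cdkn2a, start of the p19ARF transcript, chr4:89294620-89294819, minus strand: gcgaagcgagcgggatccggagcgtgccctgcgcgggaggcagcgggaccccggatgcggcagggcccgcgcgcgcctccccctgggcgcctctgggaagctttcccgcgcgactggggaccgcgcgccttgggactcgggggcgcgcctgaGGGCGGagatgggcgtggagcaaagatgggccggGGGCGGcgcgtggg
Cdkn2a, start of the p16INK4A transcript, chr4:89282193-89282392, minus strand: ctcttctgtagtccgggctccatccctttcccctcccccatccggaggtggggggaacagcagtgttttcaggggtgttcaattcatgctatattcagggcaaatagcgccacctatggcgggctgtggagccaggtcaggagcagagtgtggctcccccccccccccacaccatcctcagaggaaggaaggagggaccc
Cdkn2b, chr4:89311033-89311232, minus strand: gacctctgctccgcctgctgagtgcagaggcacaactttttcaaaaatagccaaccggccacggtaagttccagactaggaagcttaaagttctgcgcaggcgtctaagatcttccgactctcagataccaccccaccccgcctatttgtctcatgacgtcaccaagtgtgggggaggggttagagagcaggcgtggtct

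The p19ARF start carried 2 GC boxes and 30 CG dinucleotides, more than 97.4% of the 32851 windows of the same length before RefSeq starts (build GRCm38.p6), of which 31.0% held a GC box. The p16INK4A start held 4 CG dinucleotides and the Cdkn2b start 9, with no GC box in either, while the median window held 5. None of the 3 windows held the E-box CACGTG, found in 5.26% of all windows, or TATAAA on either strand, found in 9.96%. Windows were available for 7 of the 9 genes.

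In bulk tumors, which also contain host cells, Cdkn2a was read at 0.24 and 0.18 TPM in the controls, 0.37 and 0 with sg492, and 0.42 and 0.17 with sg495. Cdkn2b was read in all 6 bulk tumors, at 0.53 and 0.41 TPM in the controls, 0.71 and 0.79 with sg492, and 0.69 and 0.15 with sg495. Both genes thus stayed under 1 TPM in every bulk tumor, neither passed the expression filter of any comparison among the 18 libraries, and no fold change is given for them. The values of the 3 genotypes overlapped for Cdkn2a, and the sg495 values of Cdkn2b lay on both sides of the controls. Leukocyte, fibroblast, endothelial and mast cell markers each summed higher in every bulk tumor than in every sorted or cultured library. Fibroblast markers summed to 395 to 1091 TPM in bulk tumors, against 4.45 to 7 in sorted and 10.3 to 15.5 in cultured cells. Endothelial markers summed to 120 to 139 TPM in bulk tumors, against 35.7 to 56.5 in sorted and 18.1 to 20.2 in cultured cells. Keratinocyte markers overlapped, at 0.07 to 10.2 TPM in bulk tumors and 0 to 0.1 in cultured cells. Cultured cells had 12 of 19 leukocyte markers at 0 in every library, Ptprc (CD45) among them, and sorted cells had 4, including Cd3e. Which cells of a bulk tumor the reads came from was not tested, and in bulk tissue fewer cells of a type and less RNA per cell cannot be told apart.

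The 5 remaining libraries separated the pair of genes. Cdkn2a stood at 2.99 and 2.62 TPM in the IgG libraries and at 0.28, 0.11 and 1.73 in the anti-PD1 libraries. Cdkn2b was listed at 0 in both IgG libraries and at 1.08, 0.2 and 0.41 TPM in the anti-PD1 libraries. Cdkn2a was thus highest in 2 libraries with Cdkn2b at 0. These had 12077 and 12123 TPM of leukocyte markers and 46.6 to 81 TPM of fibroblast markers. The anti-PD1 libraries, with less Cdkn2a, had 7268, 10887 and 11153 TPM of leukocyte markers and 89.3, 42.8 and 98.6 TPM of fibroblast markers. The part of those cell types in the values was not tested.

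The genes around the locus were read unevenly in the tumor cells. Mtap, a methionine salvage enzyme 93.4 kb from Cdkn2a and named here after its values were seen, was read at 309 to 358 TPM in cultured cells, 154 to 182 in sorted cells and 221 to 244 in bulk tumors. Between Mtap and Cdkn2a, the small nucleolar RNA gene Gm26490 was listed at 0 to 1.06 TPM in cultured cells and at 0 in sorted cells, and the noncoding gene Gm12606 and the pseudogene Tgif2-ps1 were listed at 0 in all cultured and sorted libraries. Beyond Cdkn2b, the first protein-coding gene with at least 1 TPM in cultured cells was Caap1, an apoptosis inhibitor 5189 kb away, at 15.6 to 17.3 TPM. Expression alone does not show what the DNA between them holds.

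**Figure D1:**
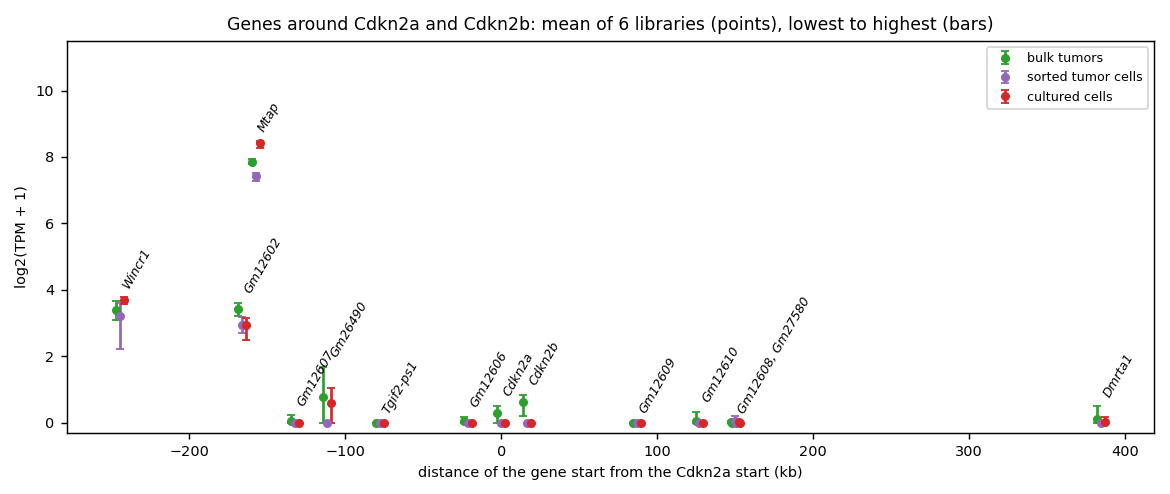
Expression of annotated genes around Cdkn2a, as log2(TPM + 1) (vertical axis) against the distance of each gene's start from the Cdkn2a start in kb (horizontal axis); points are means of 6 libraries and bars run from the lowest to the highest. Mtap lies at 154 to 358 TPM in all 3 sample types, while Cdkn2a and Cdkn2b lie at 0 in sorted and cultured cells and under 1 TPM in bulk tumors.

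**Figure D2:**
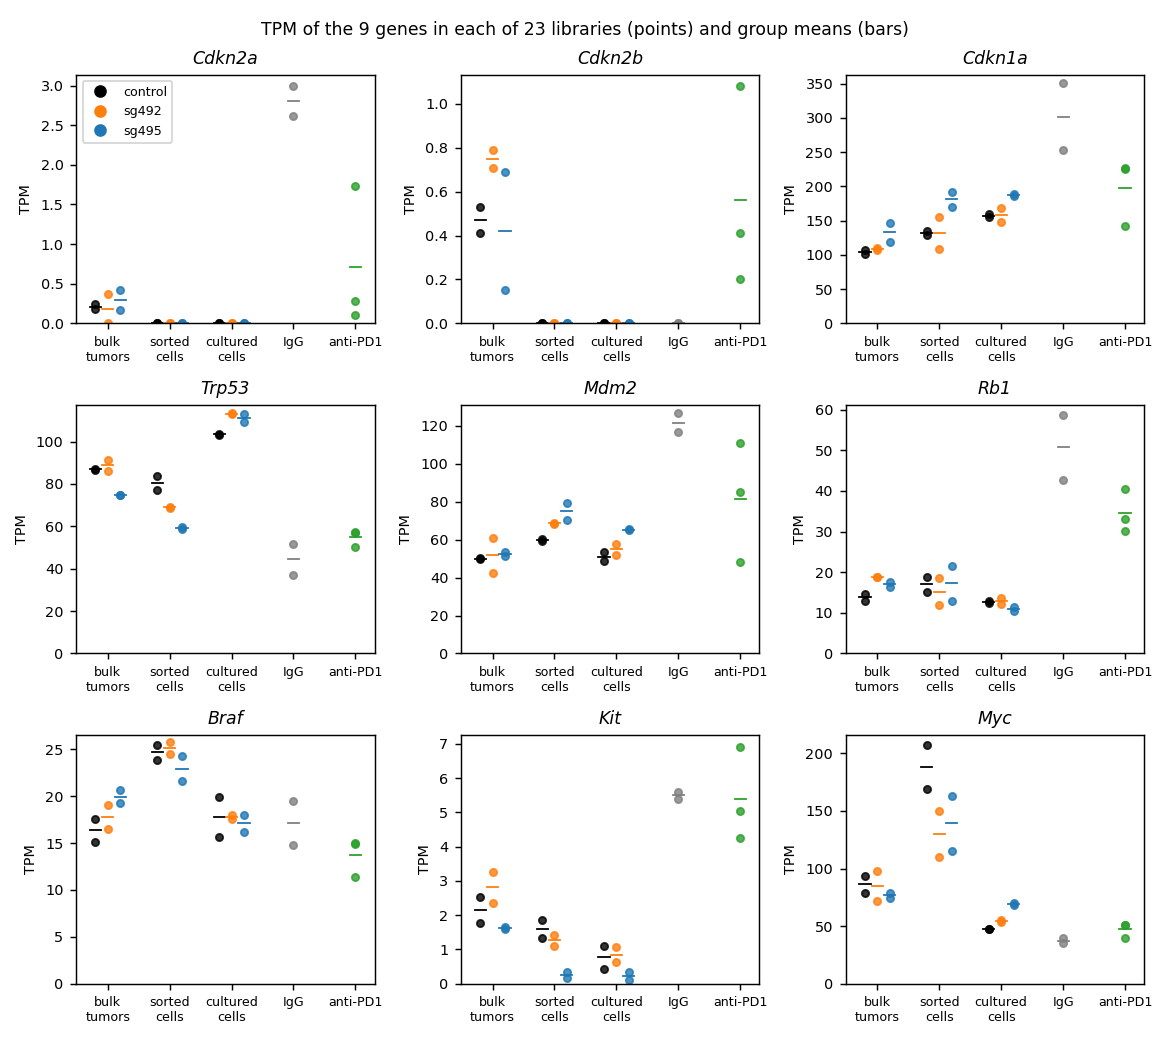
TPM of the 9 genes in each of the 23 libraries (points, colored by group) with group means (short bars), by sample type; each panel has its own vertical axis from 0. Cdkn2a and Cdkn2b are at 0 in sorted and cultured cells, Trp53 is highest in cultured cells, Myc is highest in sorted cells and Kit is highest in the IgG and anti-PD1 libraries.

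The other 7 genes were tested with limma on log2(TPM + 1), and calls required a fold change of at least 1.5 with a p under 0.05 after Benjamini-Hochberg adjustment over all genes tested. Sample types were compared as the mean over the 3 genotypes. Because sorted cells alone were dissociated and bead-sorted, that handling and the sample type cannot be told apart. Sorted against cultured cells gave 2 members called of 7 tested, Trp53 and Myc, where 23.6% of all genes were called. Bulk tumors against sorted cells gave 2 of 7, Kit and Myc (13.6% of all genes), and bulk tumors against cultured cells gave 1 of 7, Kit (19.8%). With no fold threshold, the adjusted p was below 0.05 for 5, 6 and 5 of 7 members, where 66.5%, 49.9% and 60.7% of all genes passed.

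**Figure D3:**
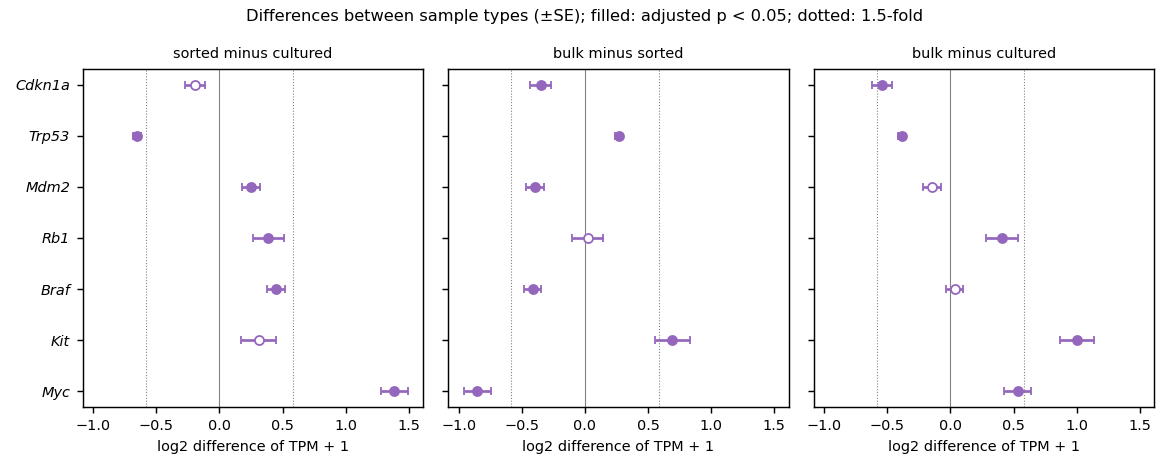
Differences between sample types for the 7 tested genes on the log2(TPM + 1) scale (horizontal axis), with standard errors from limma; filled points have an adjusted p below 0.05 and dotted lines mark 1.5-fold. Myc lies furthest to the right in sorted minus cultured cells (1.39) and Kit in both bulk comparisons (0.69 and 1.00). Kit met the expression filter only through the bulk tumors.

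Trp53, which encodes the transcription factor p53, was highest in culture. In cultured cells it was read at 104 and 103 TPM in the controls, 113 and 114 with sg492, and 113 and 109 with sg495. In sorted cells the values were 83.9 and 77.2 TPM in the controls, 69.1 and 68.8 in the libraries labelled sg492, and 58.7 and 59.9 with sg495. In bulk tumors they were 87.2 and 86.6 TPM in the controls, 86.3 and 91.2 with sg492, and 74.7 and 74.8 with sg495. Cultured cells were above every sorted and bulk library, while sorted and bulk libraries overlapped. Trp53 was 0.635 times as high in sorted as in cultured cells (log2 difference -0.65, SE 0.0291, adjusted p = 1.4e-09) and 0.764 times as high in bulk tumors as in cultured cells (-0.39, SE 0.0291, adjusted p = 1.4e-07). In the control libraries alone the first difference was -0.36, which is less than 1.5-fold.

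With sg495, Trp53 moved differently in the tumor-derived samples and in culture. The difference to control was -0.43 in sorted cells (SE 0.0775, adjusted p = 0.0711). It was -0.21 in bulk tumors (SE 0.0626, adjusted p = 0.175) and 0.10 in culture (SE 0.0395, adjusted p = 0.162), so none passed on its own. In sorted cells and bulk tumors both sg495 libraries were below both controls, and in cultured cells both were above. The differences between these effects were tested as interactions: the sg495 effect was lower in sorted than in cultured cells by a log2 difference of -0.54 (SE 0.0712, adjusted p = 0.0025) and in bulk tumors by -0.32 relative to culture (SE 0.0712, adjusted p = 0.0424). Trp53 was the 1 member of 7 that passed in either interaction at an adjusted p below 0.05 with no fold threshold, where 3.94% and 2.25% of all genes passed. The first interaction kept its adjusted p below 0.05 under 13 of 13 alternatives, and the second under 4 of 13; it lost it when any 1 of the 8 libraries was left out. The libraries labelled sg492, compared with the same controls, gave -0.22 after sorting (adjusted p = 0.653), 0.13 in culture (adjusted p = 0.366) and 0.03 in bulk tumors (adjusted p = 0.911). Leukocyte markers in bulk tumors summed to 638 and 469 TPM in the controls, 728 and 854 with sg492, and 959 and 1083 with sg495. In sorted cells they summed to 12.2 and 10.3 TPM in the controls, 14.8 and 16.4 in the libraries labelled sg492, and 16.6 and 20.1 with sg495. With sg492 in bulk tumors the markers were above both controls, while Trp53 lay on both sides of them. The part of leukocytes in the Trp53 values was not tested.

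Mdm2, the ubiquitin ligase for p53, was higher in sorted cells than elsewhere among the 3 sample types. The sorted values were 60.3 and 59.2 TPM in the controls, 68.4 and 68.9 in the libraries labelled sg492, and 79.5 and 70.3 with sg495. Bulk tumors had 49.8 and 50.2 TPM in the controls, 42.4 and 61.1 with sg492, and 53.3 and 51.1 with sg495. Cultured cells had 48.5 and 53.25 TPM in the controls, 57.9 and 51.9 with sg492, and 65.0 and 65.4 with sg495. The sample types overlapped, and the differences stayed under 1.5-fold: 0.25 between sorted and cultured cells (SE 0.0726, adjusted p = 0.00909) and -0.40 between bulk tumors and sorted cells (SE 0.0726, adjusted p = 0.000625). In control libraries alone these adjusted p were 0.165 and 0.162.

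In cultured cells Mdm2 was 1.28-fold higher with sg495 than in control (0.35, SE 0.0716, adjusted p = 0.0307), with both sg495 libraries above both controls. That adjusted p passed 0.05 under 4 of 11 alternatives and was between 0.0672 and 0.139 when any 1 of the 4 libraries was left out. In sorted cells the sg495 difference of Mdm2 was 0.32 (SE 0.0859, adjusted p = 0.171). In bulk tumors it was 0.06 (95% interval -0.33 to 0.45).

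Cdkn1a, which encodes p21, had the highest TPM of the 9 genes in cultured cells, with a mean of 168 ± 16.9 (SD, n = 6). Its upstream RefSeq start is shown because p53 target genes are described below. Capitals mark the 2 exact matches to the p53 half-site, which begin 73 and 51 bases before the start. Stretches that differ from its consensus at any base are unmarked, such as tgacatgttc directly after the second match.
Cdkn1a, upstream start, chr17:29090779-29090978, plus strand: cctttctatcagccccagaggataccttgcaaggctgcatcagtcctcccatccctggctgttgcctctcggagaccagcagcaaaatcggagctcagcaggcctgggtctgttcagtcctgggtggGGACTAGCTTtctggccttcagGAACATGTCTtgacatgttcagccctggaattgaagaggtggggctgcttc

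The p53 half-site was searched by its name's consensus, which reads the same on both strands, and 5.59% of all 32851 windows held at least 1 match. The windows of Mdm2 and Trp53 held 1 match each, and the downstream start of Cdkn1a held none. A match is a description of letters and not a bound site.

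Cdkn1a was read in cultured cells at 155 and 159 TPM in the controls, 168 and 147 with sg492, and 189 and 186 with sg495. In sorted cells it was read at 135 and 129 TPM in the controls, 156 and 108 in the libraries labelled sg492, and 171 and 192 with sg495. In bulk tumors it was read at 101 and 107 TPM in the controls, 106 and 109.6 with sg492, and 147 and 119 with sg495. Both sg495 libraries were above both controls in all 3 sample types. The sg495 differences were 0.25 in cultured cells (SE 0.0645, adjusted p = 0.0566), 0.45 in sorted cells (SE 0.169, adjusted p = 0.285) and 0.34 in bulk tumors (SE 0.108, adjusted p = 0.204), and none passed. The sg492 differences to the same controls were 0.00, -0.02 and 0.05, with intervals from -0.15 to 0.16, -0.43 to 0.39 and -0.21 to 0.32. Across sample types, Cdkn1a was lower in bulk tumors than in cultured cells (-0.54, SE 0.0806, adjusted p = 7.6e-05), and the highest bulk library (147.1 TPM) was just below the lowest cultured library (147.4 TPM).

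The p53 target list held 30 genes, members included. In cultured cells with sg495, 8 of 22 tested genes rose and 1 fell at an adjusted p below 0.05, with a median difference of 0.21 against 0.00 over all genes; 12% of all genes passed in either direction and 4.51% rose. The risers, named after their values were seen, were Phlda3, a repressor of AKT (0.62), Ccng1 (0.56), Zmat3, an RNA-binding regulator (0.55), Aen, an exonuclease (0.45), Mdm2, Bax, a pore-forming death protein (0.26), Gtse1 (0.25) and Rps27l (0.23), and Ckap2 fell (-0.28). Phlda3 alone was called at 1.5-fold (SE 0.0551, adjusted p = 0.0029). With 1 library left out the median difference of the list was 0.176 to 0.199. In sorted cells with sg495 no gene of 25 passed, 6 having an unadjusted p below 0.05, and the median was 0.04. Of all 12899 genes tested there, 2010 had an unadjusted p below 0.05. Between sorted and cultured cells the list went both ways, with 11 of 25 genes higher and 9 lower at an adjusted p below 0.05, where 66.5% of all genes passed and 34.8% were lower: Btg2, an antiproliferative gene (2.65), Plk2, a stress-induced kinase (2.05), and Sesn2, a sestrin (1.62), had the largest differences.

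Rb1, the retinoblastoma protein gene, was read at lower TPM than Cdkn1a in every library. Cultured cells had 12.4 and 12.9 TPM in the controls, 13.6 and 12.2 with sg492, and 10.4 and 11.55 with sg495. Bulk tumors had 14.7 and 12.9 TPM in the controls, 18.7 and 18.7 with sg492, and 16.5 and 17.6 with sg495. Sorted cells had 18.9 and 15.15 TPM in the controls, 18.6 and 11.85 in the libraries labelled sg492, and 12.9 and 21.6 with sg495. Replicates in sorted cells were thus as far apart as the groups. Bulk tumors with either guide were above both bulk controls, by 0.41 with sg492 (SE 0.104, adjusted p = 0.494) and 0.29 with sg495 (SE 0.104, adjusted p = 0.261), and neither passed. Bulk tumors had more Rb1 than cultured cells, by 0.41 (SE 0.124, adjusted p = 0.0128), but by 0.12 in control libraries alone (adjusted p = 0.698). Exons of Rb1 overlap those of Rcbtb2 (488 bases) and Lpar6 (408 bases) on the opposite strand; the library kit keeps strand, but whether counting used it is not given in the sources used here.

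Among the 23 genes of G1 control, which include the cyclin D and E genes, their kinases, inhibitors and the pocket proteins, 14 of 20 tested were lower and 5 higher in sorted than in cultured cells at an adjusted p below 0.05, where 34.8% of all genes were lower. The largest called differences were those of the cyclin D3 gene Ccnd3 (-1.77), the INK4 inhibitor Cdkn2d (-1.34) and the cyclin E gene Ccne1 (-1.24). With sg495 in cultured cells, Ccnd1, the cyclin D1 gene, rose by 0.93 (SE 0.0423, adjusted p = 0.00073) and Rbl2, which encodes the pocket protein p130, fell by 0.65 (SE 0.0806, adjusted p = 0.0071). The sg495 effect on Ccnd1 was lower by 0.97 in sorted than in cultured cells (log2 difference -0.97, SE 0.156, adjusted p = 0.0066).

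Kit, the receptor tyrosine kinase, was the lowest of the 7 tested genes. Bulk tumors had 1.76 and 2.54 TPM in the controls, 2.36 and 3.27 with sg492, and 1.59 and 1.66 with sg495. Sorted cells had 1.34 and 1.85 TPM in the controls, 1.11 and 1.42 in the libraries labelled sg492, and 0.35 and 0.18 with sg495. Cultured cells had 0.43 and 1.1 TPM in the controls, 0.62 and 1.07 with sg492, and 0.34 and 0.11 with sg495. The sg495 libraries were below both controls in all 3 sample types. In sorted cells the sg495 difference was -1.03 (SE 0.313, adjusted p = 0.207), which did not pass. At levels near 1 TPM the pseudocount sets the size of a log2 difference, and with a pseudocount of 0.1 in place of 1 this value was -2.24 (adjusted p = 0.199). In bulk tumors it was -0.25 (95% interval -0.81 to 0.30), and in cultured cells Kit did not pass the expression filter. When the spread was estimated from all 18 libraries, the sorted difference was called (adjusted p = 0.0186). Kit averaged 1.04 TPM over the 6 sorted libraries and met the filter of 1 TPM there only through the control and sg492-labelled libraries. The filter thus favored a lower value with sg495 in sorted cells.

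Between sample types, Kit was higher in bulk tumors than in cultured cells (log2 difference 1.00, SE 0.137, adjusted p = 3.9e-05) and 1.62-fold higher than in sorted cells (0.69, SE 0.137, adjusted p = 0.0011), and the groups overlapped only against sorted cells. In control libraries alone the second difference was 0.275 (adjusted p = 0.432), which ends that call. With a pseudocount of 0.1 the differences were 1.88 against cultured and 1.26 against sorted cells, and both stayed called. The filter of 1 TPM over the 18 libraries was met through the bulk tumors. Kit averaged 2.20 TPM there, against 1.04 in sorted and 0.61 in cultured cells. Kitl, the gene of its ligand stem cell factor, was also called higher in bulk tumors, by 1.20 against sorted (SE 0.124) and 1.15 against cultured cells (SE 0.124). Kitl averaged 2.95 TPM in bulk tumors, 0.727 in sorted and 0.765 in cultured cells, so it too met the filter only through the bulk tumors. The filter thus favored higher values in bulk tumors, and these differences of Kit and Kitl are a description only. Mast cell markers, a list that holds genes of cells with high Kit, summed to 4.23 to 10.05 TPM in bulk tumors, 0.2 to 0.83 in sorted cells and 0 to 0.21 in cultured cells. The mast cell protease gene Cpa3 was at 0.35 to 2.09 TPM in bulk tumors and 0 in every cultured library. In the IgG and anti-PD1 libraries, where Kit was at 4.24 to 6.92 TPM, Cpa3 was at 0 throughout. Mast cell markers summed there to 3.61 to 17.88 TPM, with 6 of 8 at 0 in both IgG libraries. The part of these cells in the bulk values was not tested, and Kit was at 0.11 to 1.1 TPM in the cultured libraries, where 7 of 8 mast cell markers were at 0 throughout.

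Braf, the kinase above MEK, was higher in sorted cells than in the other sample types. Sorted cells had 25.5 and 23.9 TPM in the controls, 24.5 and 25.8 in the libraries labelled sg492, and 24.3 and 21.6 with sg495. Cultured cells had 19.9 and 15.6 TPM in the controls, 17.5 and 17.98 with sg492, and 16.2 and 18.02 with sg495. Bulk tumors had 17.6 and 15.1 TPM in the controls, 16.5 and 19.1 with sg492, and 19.25 and 20.6 with sg495. Every sorted library was above every library of the other 2 types. The difference was 0.45 against cultured cells (SE 0.0683, adjusted p = 8e-05), and bulk tumors were lower than sorted cells by 0.41 (log2 difference -0.41, SE 0.0683, adjusted p = 0.00028), both under 1.5-fold. Bulk tumors and cultured cells differed by 0.03 (95% interval -0.11 to 0.18). No guide difference of Braf had an adjusted p below 0.05. Braf shares 146 exon bases with Ndufb2 on the opposite strand. Of the 18 genes of the RAS, RAF, MEK and ERK core, 6 were higher and 5 lower in sorted than in cultured cells at an adjusted p below 0.05, and 1 was called, the RAS exchange factor gene Sos1 (-0.81); 66.5% of all genes passed in this comparison and 23.6% were called.

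Myc, the growth-promoting transcription factor, separated the 3 sample types. Cultured cells had 47.7 and 47.7 TPM in the controls, 55.15 and 53.3 with sg492, and 68.6 and 70.3 with sg495. Sorted cells had 169 and 207 TPM in the controls, 150.4 and 110.3 in the libraries labelled sg492, and 163 and 115 with sg495. Bulk tumors had 93.6 and 79.1 TPM in the controls, 71.6 and 97.6 with sg492, and 78.7 and 74.5 with sg495. The 3 types did not overlap: every sorted library was above every bulk tumor, and every bulk tumor above every cultured library. Myc was 2.61-fold higher in sorted than in cultured cells (1.39, SE 0.106, adjusted p = 1.8e-07), and 1.45-fold higher in bulk tumors than in cultured cells (0.53, SE 0.106, adjusted p = 0.00086). Bulk tumors were lower than sorted cells, at 0.553 times (-0.85, SE 0.106, adjusted p = 2.7e-05).

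With either guide, Myc lay above both controls in cultured cells and below both in sorted cells. In cultured cells it was 1.45-fold higher with sg495 than in control (0.53, SE 0.0458, adjusted p = 0.0027), which is under the 1.5-fold threshold, and 1.13-fold higher with sg492 (0.18, SE 0.0458, adjusted p = 0.309). In sorted cells the differences were -0.45 with sg495 (SE 0.218, adjusted p = 0.395) and -0.54 in the libraries labelled sg492 (SE 0.218, adjusted p = 0.697). In bulk tumors they were -0.17 and -0.04, with intervals from -0.54 to 0.21 and -0.42 to 0.34. The sg495 effect in sorted minus cultured cells was -0.98 (SE 0.261, adjusted p = 0.0600), so that difference did not pass, and in bulk tumors minus cultured cells it was -0.70 (SE 0.261, adjusted p = 0.204). The cultured sg495 difference kept its adjusted p below 0.05 under 10 of 11 alternatives and lost it where all 18 libraries set the spread (adjusted p = 0.128).

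The 20 MYC target genes, mainly of ribosome production and of nucleotide and polyamine synthesis, were counted in comparisons of sg495 with control and of sample types. With sg495 in cultured cells, 14 of 20 rose and 1 fell at an adjusted p below 0.05, with a median of 0.30 against 0.00 over all genes. In that comparison 12% of all genes passed in either direction and 4.51% rose. Ppan, a ribosome maturation factor, was called (0.59, SE 0.0603, adjusted p = 0.0042). With the libraries of the other guide left out, 13 rose, where 2.97% of all genes rose; with 1 library left out, 2 to 6 rose, where 0.541% to 1.13% of all genes did. In sorted cells with sg495 none of 20 passed (2 had an unadjusted p below 0.05, as did 2010 of all 12899 genes), with a median of -0.12. The sg495 effect was lower in sorted than in cultured cells for 6 of 20 at an adjusted p below 0.05, where 1.86% of all genes were lower; Dkc1, a pseudouridine synthase (-0.70), and Srm, spermidine synthase (-0.64), were called. Between sorted and cultured cells, 14 of 20 were lower and 1, the polyamine enzyme gene Odc1 (1.11), was higher, with a median of -0.26. Of all genes, 34.8% were lower in that comparison. In the control libraries alone 7 were lower and 2 higher, where 21.5% of all genes were lower and 21.3% higher. Both the number of lower targets and the share of all genes lower were thus smaller there. In bulk tumors against sorted cells, 10 of 20 targets were higher and 4 lower at an adjusted p below 0.05, where 49.9% of all genes passed. Against cultured cells, bulk tumors had 3 higher and 12 lower, where 60.7% of all genes passed.

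**Figure D4:**
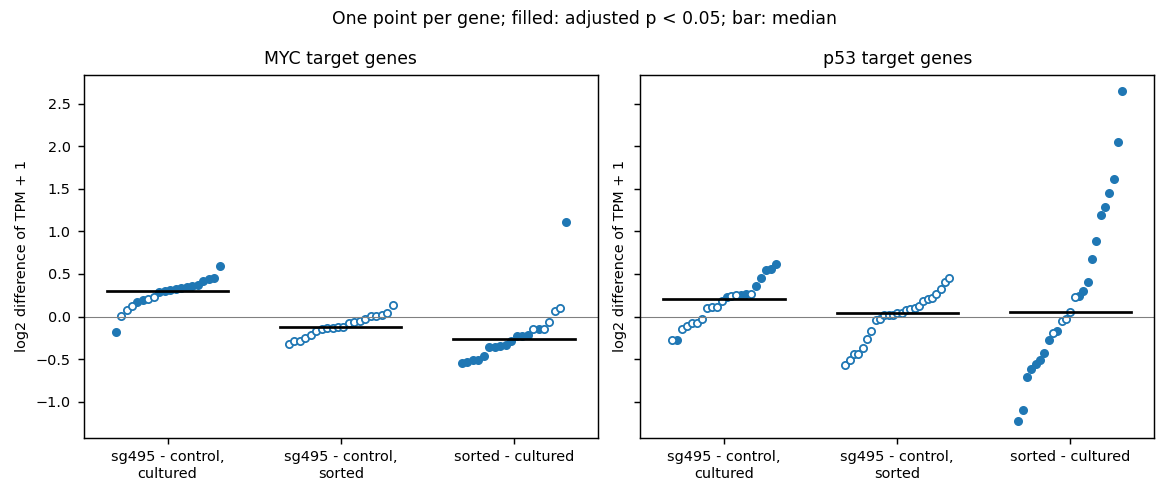
Differences of single genes of the MYC (left) and p53 (right) target lists on the log2(TPM + 1) scale (vertical axis) in 3 comparisons; each point is a gene, filled at an adjusted p below 0.05, and bars are medians. The MYC targets have medians of 0.30, -0.12 and -0.26, and the p53 targets of 0.21, 0.04 and 0.06.

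Partners of MYC differed in the same comparison of sorted and cultured cells. Mxd1 and Mxi1, whose products pair with MAX and oppose MYC, were higher in sorted cells by 1.77 (SE 0.124) and 1.59 (SE 0.0738), and Mxd3 of the same family was lower (-1.69, SE 0.075). In all, 6 of 10 tested partners were higher and 3 lower at an adjusted p below 0.05, where 66.5% of all genes passed and 34.8% were lower. With sg495 in cultured cells Mxi1 fell by 0.67 (SE 0.0742, adjusted p = 0.0056).

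By guide, no member was called in any sample type. With sg495 the share of all genes called was 0.0293% in bulk tumors, 0.899% in sorted cells and 2.77% in cultured cells, and with sg492 it was 0%, 0.0388% and 0.05%. The bulk shares rest on few genes: 4 were called with sg495 and 0 with sg492, but 190 and 66 without the first bulk control. The numbers of members with an unadjusted p below 0.05 were 3, 4 and 4 with sg495 and 1, 2 and 2 with sg492, of 7, 7 and 6 tested. Over all genes the numbers with sg495 were 2135 of 13639, 2010 of 12899 and 3337 of 12007. With sg492 they were 1132 of 13639, 920 of 12899 and 1265 of 12007. The 2 guides were compared with the same control libraries, so their values are not independent. No member was called in the interactions either, where 2.51% (sorted minus cultured), 1.76% (bulk minus cultured) and 0.122% (bulk minus sorted) of all genes were. An exact permutation test of 2 against 2 libraries cannot give a p below 0.333.

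**Figure D5:**
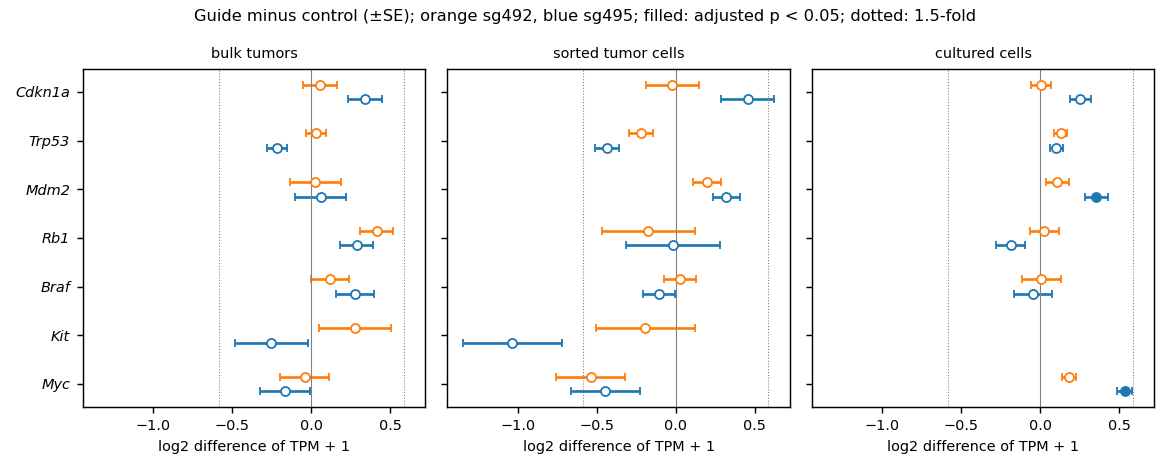
Difference of each guide to control for 7 genes on the log2(TPM + 1) scale (horizontal axis) with standard errors, by sample type; filled points have an adjusted p below 0.05 and dotted lines mark 1.5-fold. Mdm2 (0.35) and Myc (0.53) with sg495 in cultured cells are filled, and Trp53 lies left of 0 with sg495 in sorted cells and bulk tumors and right of 0 in cultured cells.

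In the IgG and anti-PD1 libraries several members stood outside the range of the 18 other libraries. Rb1 was at 42.6 and 58.8 TPM with IgG and 30.1, 33.0 and 40.4 with anti-PD1, above its highest value of 21.6 elsewhere. Kit was at 5.6 and 5.39 TPM with IgG and 5.03, 4.24 and 6.92 with anti-PD1, above its highest value of 3.27 elsewhere. Trp53 was at 51.9 and 37.2 TPM with IgG and 56.7, 57.4 and 50.5 with anti-PD1, below its lowest value of 58.7 elsewhere. Mdm2 was at 117 and 127 TPM with IgG and at 48.2, 111 and 85.2 with anti-PD1, Cdkn1a at 253 and 351 with IgG and 142, 225 and 226 with anti-PD1. Myc was at 39.5 and 35.2 TPM with IgG and 50.6, 50.8 and 39.7 with anti-PD1, and Braf at 14.8 and 19.4 with IgG and 11.3, 14.9 and 15.05 with anti-PD1. These libraries also held more leukocyte and fewer melanocyte transcripts, and the part of that in the members' levels was not tested. Between anti-PD1 and IgG, none of the 8 members tested by limma had an unadjusted p below 0.05, and 0% of all genes were called while 964 had an unadjusted p below 0.05. The widest interval was that of Cdkn2a, -2.68 to 0.13 on the log2 scale around -1.27. Cdkn2a averaged 0.71 TPM in the anti-PD1 libraries and met the filter of 1 TPM only through the IgG libraries. The filter thus favored a lower value with anti-PD1, and the difference of Cdkn2a is a description only.

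The genes whose log2(TPM + 1) followed a member most closely over the 18 libraries, among 13152 genes, are given as a description, since the libraries share 3 sample types. Trp53 was followed by Taf2, a subunit of the transcription factor TFIID (Pearson r = 0.97), Nol11 (0.964) and Usp1 (0.96). Myc was followed by Ppp1r15b, a phosphatase subunit of the stress response (0.951), the noncoding Snhg1 (0.948) and Klf4, a transcription factor (0.943). Braf was followed by Herc1 (0.937), Kit by Cotl1 (0.916), Cdkn1a by Pias4 (0.897), Rb1 by Ctbs (0.893) and Mdm2 by Cpt1c (0.888).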

How the data were processed

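The authors trimmed reads with Cutadapt 2.3, aligned them to mm10 with STAR 2.7.0d and quantified genes with RSEM 1.3.1. They deposited TPM for 47643 genes and 23 libraries. The authors' own test used estimated counts, which were not used here, so depth is unknown and no counting interval is given. TPM were used as deposited. Groups came from the labels. Each comparison used limma 3.58.1 (R 4.3.3) on log2(TPM + 1), by lmFit and by eBayes with an expression trend, and genes had to average at least 1 TPM over its libraries; tests are 2-sided, with Benjamini-Hochberg adjustment over all genes tested. Guides were compared within the 6 libraries of a sample type, sample types and interactions in all 18, and anti-PD1 with IgG in their 5. The members and the gene lists were chosen with earlier results of these data known, so lists are described by counts only. Every member was named with its values; of a list, at most the 3 called genes with the largest change per comparison, beside genes counted at an adjusted p. Scripts were tested on simulated data. Positions came from GENCODE M21 and windows from RefSeq, both GRCm38, with the same coordinates as mm10. Alternatives were a pseudocount of 0.1, no filter, a filter of 5 TPM, scaling by median of ratios, a replicate block, other sets of libraries, and each library left out. Plots used Python 3.11.15 and matplotlib 3.10.9.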

Additional observations from a re-analysis of the deposited data

Results flagged for a closer look

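The sg495 effect on Trp53 differed between sample types by a test of the difference itself. In sorted minus cultured cells the difference of the effects was -0.54 on the log2 scale, with both sg495 libraries below both controls in sorted cells and above both in cultured cells. In bulk tumors minus cultured cells it was -0.32, again with both sg495 libraries below both controls in bulk tumors. The second value did not keep its adjusted p below 0.05 when any 1 of the 8 libraries was left out. No group had 4 to 10 libraries, so no library was tested as an outlier.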

How the results depend on the processing

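Repeated values were counted only for members with an unadjusted p below 0.05 in the main fit of a comparison, 584 values in all. None of these reversed its direction, and 545 kept their side of an adjusted p of 0.05. The other differences were not counted, so their stability of direction is not described. The number of members called changed as follows. Kit was called with sg495 in sorted cells in the fit of 18 libraries (1 member against 0). In control groups only, sorted against cultured cells gave 1 (Myc), bulk against sorted 1 (Myc) and bulk against cultured 3 (Cdkn1a, Kit, Myc). At a mean of at least 5 TPM, bulk against sorted gave 1 (Myc), bulk against cultured 0, Kit being filtered out, and the sorted minus cultured sg495 effect 1 (Myc). With no filter, bulk against cultured gave 2 and bulk against sorted 3, Cdkn2b being added to each. With 1 library left out, bulk against cultured gave 1 to 2 (Myc joined without sg492 bulk tumor 1, Cdkn1a without sg495 bulk tumor 1), and the sorted minus cultured sg495 effect 0 to 1 (Trp53 without sorted control 2, Myc without sorted sg495 1). Over all genes, leaving 1 library out gave 0 to 190 calls against 4 with sg495 in bulk tumors (395 in the fit of 18 libraries), 0 to 66 against 0 with sg492 in bulk tumors, 4 to 49 calls against 116 with sg495 in sorted cells and 165 to 219 against 332 in cultured cells. Median-of-ratios scaling moved the median of all genes by at most 0.077. Same-numbered libraries of a guide and its control did not deviate together (correlations of -0.126 to 0.051), so the numbers were not taken as pairs. With the replicate block, calls over all genes were 0 for sg495 in bulk tumors, 79 in sorted and 293 in cultured cells, 0 in each sg492 comparison and 514 for anti-PD1 against IgG, and the counts of members called did not change; Mdm2 with sg495 in cultured cells had an adjusted p of 0.0585. Exchanging the numbers of the sg492 bulk tumors, added after the data were seen, gave 0 calls. What depth limits cannot be read from TPM, and values under 1 TPM, as of Cdkn2a and Cdkn2b, are the least certain.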
